A study of Mus musculus with 8 samples.

Results

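The features described here are stretches of the mouse genome to which hippocampal RNA reads were assigned and which carry an identifier but no gene symbol. They were taken from a table of 56575 rows by 3 criteria: no symbol, a mean normalised read count of at least 10 over the 8 libraries, and an interval that overlaps no row with a symbol (a named row) on either strand, chromosome M left out. In all, 2576 rows met them, among 15814 unnamed rows outside named rows at any level and 25667 rows of any kind with a mean of at least 10. Because the mean level chose these features, their levels are given as a description. The libraries came from the hippocampus of C57BL/6 mice aged 8 weeks, 4 with the genotype WT and 4 with the genotype Slm2KO. Slm2 is another name of Khdrbs3, which encodes an RNA-binding regulator of splicing in neurons, and the design compares the RNA of both genotypes. The part of the gene that was removed and the animal behind each library are not stated by the labels; a p-value below thus reflects the spread among these 8 libraries, which may be technical.

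RNA that maps outside the gene models of a table can have several origins. A transcript may run past its annotated end, since brain mRNAs often use distal polyadenylation sites and carry long 3′ untranslated regions (3′ UTRs). Promoters also start RNA on the strand opposite to their gene, long noncoding RNAs have genes of their own, and processed pseudogenes are copies of mRNAs pasted back into the genome, whose reads can be hard to tell from those of the gene they were copied from.

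The word intergenic holds for these features only against the named rows of the table. Set against GENCODE vM21 on the same assembly, mm10, 908 of the 2576 (35.2%) overlapped no annotated gene on either strand. Of the others, 752 (29.2%) touched an exon of a long noncoding RNA, 494 (19.2%) an exon of a protein-coding gene, 143 (5.55%) an exon of a pseudogene and 5 an exon of a small RNA. Another 121 lay in an intron of a same-strand gene, and 153 overlapped a gene on the opposite strand only. Among the 494 in coding genes, 366 lay over a 3′ UTR, 93 over coding sequence, 24 over a 5′ UTR and 11 over a noncoding exon. They are therefore called unnamed features below.

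Where a processed copy is at stake, the letters show how close the copy is to its parent. In the stretches below, read 5′ to 3′ on the strand of the feature from the GENCODE transcripts, a capital marks a base that differs from the mRNA of the parent gene. The stretches belong to 4 unnamed features whose values are described further on: copies of Gapdh, Atp6v0c, Rps2 and Rpl5.
Gm5559, copy of Gapdh, in GSMG0043318, chr5:95861714-95861802, plus strand: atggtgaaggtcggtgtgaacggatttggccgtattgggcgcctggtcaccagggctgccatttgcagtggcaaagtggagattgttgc
Atp6v0c-ps2, copy of Atp6v0c, in GSMG0043149, chr6:37806086-37806235, plus strand: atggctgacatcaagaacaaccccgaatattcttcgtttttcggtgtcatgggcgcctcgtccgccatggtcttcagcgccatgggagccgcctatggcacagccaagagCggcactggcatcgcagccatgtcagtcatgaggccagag
Rps2-ps13, copy of Rps2, in GSMG0043593, chrX:52898588-52898737, plus strand: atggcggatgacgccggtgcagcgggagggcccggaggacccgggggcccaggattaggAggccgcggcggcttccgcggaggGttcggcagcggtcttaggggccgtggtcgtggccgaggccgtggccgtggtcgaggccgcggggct
Gm15500, copy of Rpl5, in GSMG0036555, chr7:114705696-114705845, minus strand: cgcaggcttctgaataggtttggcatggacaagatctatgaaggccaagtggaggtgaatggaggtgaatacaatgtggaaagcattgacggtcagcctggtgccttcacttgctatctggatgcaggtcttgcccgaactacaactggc

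The copies differed little from their parents over the whole stretch that could be aligned. Gm5559 had 0 differences from Gapdh over 89 bases and Gm15500 had 0 from Rpl5 over 373 bases. Atp6v0c-ps2 had 1 difference from Atp6v0c over 465 bases, and Rps2-ps13 had 7 from Rps2 over 882 bases. A read that lies in such a stretch without touching a differing base fits both places equally well, and how the counting treated such reads is unknown here.

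The libraries held 104020058 to 125985224 reads, of which the unnamed features took 1.49% to 1.86%. All 8 marker genes of hippocampal neurons were above 0 in every library. Khdrbs3, the targeted gene, had no lower values under the label Slm2KO, with normalised read counts of 20662, 23542, 19458 and 24544 in WT 1 to 4 and of 29676, 33366, 30022 and 25932 in Slm2KO 1 to 4. Since the row covers the whole gene, it does not check for a deletion of part of it, and every direction below is one between libraries labelled WT and libraries labelled Slm2KO. Ttr, a choroid plexus transcript, ran from 219052 in WT 2 to 2262369 in Slm2KO 4. Y-linked genes were high in WT 4, Slm2KO 3 and Slm2KO 4 only, and the sample numbers in the descriptions form a lower series (libraries 1 and 2 of each label) and an upper one (libraries 3 and 4).

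Most unnamed features lay within 5 kb of a named row. Counted apart from distance, most also lay on the strand given for their nearest named row. The median gap to the nearest named row was 2724 bases; 821 features lay under 1 kb away, 734 between 1 and 5 kb, 235 between 5 and 10 kb, 469 between 10 and 50 kb and 304 at 50 kb or more. Downstream of the nearest gene on the same strand lay 1158 features, with a median gap of 2526 bases. Another 774 lay on the opposite strand before the start of the gene, the place of divergent promoter transcripts, with a median gap of 797 bases. Same-strand features upstream of the gene numbered 361, opposite-strand features past its end 270, and 13 lay on scaffolds without a named row.

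**Figure D1:**
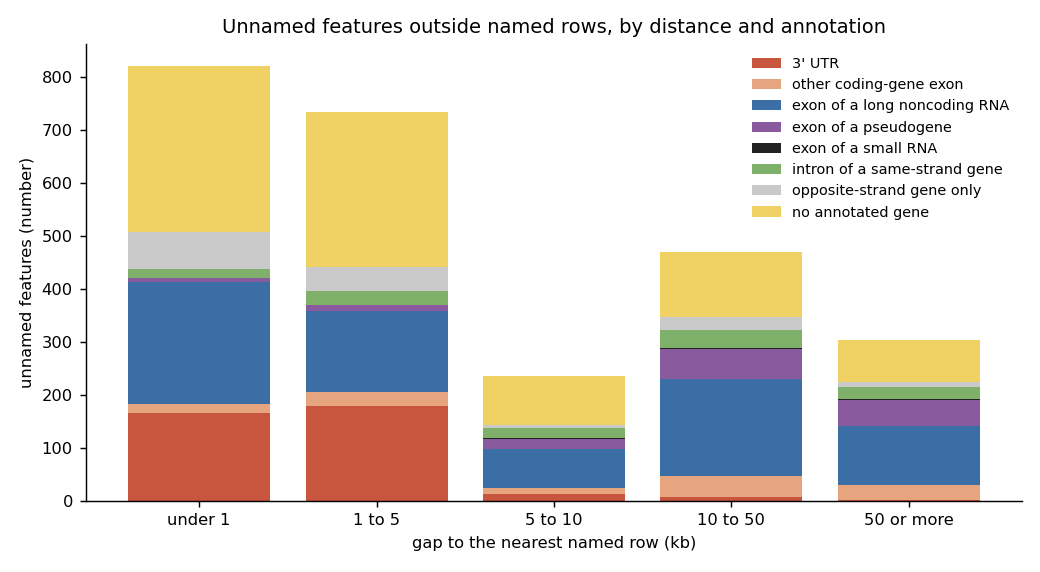
Number of unnamed features (vertical axis) by gap to the nearest named row in kb (horizontal axis), coloured by what GENCODE vM21 annotates there. The 3′ UTR features stand almost all in the first 2 bars (165 and 179), whereas 107 of the 143 pseudogene features lie at 10 kb or more.

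The annotation classes differed in where they lay. Of the 366 3′ UTR features, 344 were within 5 kb of a named row, and for 295 (80.6%) the 3′ UTR belonged to that nearest gene itself, so the named row ended short of the GENCODE transcript. Long noncoding RNA features were found at every distance, 231 under 1 kb and 111 at 50 kb or more. Of the 908 features without annotation, 436 were downstream on the same strand and 282 on the opposite strand before the gene start.

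The unnamed features were short and mostly of low level. Their median length was 2028 bases and their median mean value 71.2 normalised reads, against 568 over all rows tested and 1542 over named rows. Per kb of interval, which for a named row includes its introns, the median was 55.0 for the unnamed features and 62.0 for named rows. The spread over the 8 libraries, as a coefficient of variation (CV), had a median of 19.2% among the unnamed features and 12.3% over all rows; the order of the 2 kinds depended on the level. Between 10 and 50 normalised reads the median CV was 30.3% for unnamed features and 34.4% for named rows, between 50 and 100 it was 19.6% and 22.9%, between 100 and 1000 it was 13.4% and 12.9%, and between 1000 and 10000 it was 8.90% and 6.86%. In the bins of low level the unnamed features were thus the less variable of the 2 kinds, and in the upper bins the more variable. The 252 features of at most 60 bases had a median level of 23.4 and a median CV of 14.2%. Their part in the order of the low bins was not tested. The upper bins were not matched by level. Median values there were 254 for unnamed features and 435 for named rows (100 to 1000), and 1975 and 2986 (1000 to 10000).

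Stretches of 3′ UTR were the class with the highest level per length among the larger classes after pseudogenes, with a median of 599 normalised reads per kb. The most abundant was GSMG0027833, a stretch of 2436 bases in the 3′ UTR of Frrs1l, an AMPA receptor assembly factor (chromosome 4, 56957174 to 56959609, minus strand). It gave 34746, 36227, 34008 and 38077 in WT 1 to 4 and 34746, 40044, 38013 and 35145 in Slm2KO 1 to 4. The ranges overlapped (log2 difference 0.05, interval -0.09 to 0.18, limma adjusted p = 1.00), and the row named Frrs1l held 50202 ± 4574 in WT-labelled libraries (SD, n = 4).

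For several receptor genes of the synapse, the unnamed stretch held more reads than the row that carries the gene's name. Grin2a encodes a subunit of the NMDA receptor, and GSMG0015419, 6719 bases past the end of its row (chromosome 16, 9567912 to 9570990, minus strand), held 17501 ± 1385 reads in WT-labelled libraries against 6130 ± 930 in the Grin2a row (SD, n = 4). In the Slm2KO-labelled libraries the stretch held 19335 ± 1804 and the row 5494 ± 707, a log2 difference of 0.14 for the stretch (SE 0.081, limma adjusted p = 1.00). Grin2b, which encodes another NMDA receptor subunit, had 2290 ± 262 in its row and 11197 ± 1347 in GSMG0033813, which lay 14863 bases farther (WT-labelled, SD, n = 4). Gabrb1, a subunit gene of the GABA-A receptor, had 4205 ± 294 in its row and 11286 ± 100 in GSMG0029262 (WT-labelled, SD, n = 4).

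The same held for 4 further genes. Over all 8 libraries, Kcnq3, which encodes a voltage-gated potassium channel, had a mean of 4516 in its row and 15538 in GSMG0014059. Gpr26, an orphan G protein-coupled receptor gene, had 5365 and 16067 (GSMG0035256), Caln1 2873 and 11277 (GSMG0029878), and Dgkh, a diacylglycerol kinase gene, 5538 and 13246 (GSMG0012701). Klf9, a transcription factor gene, was of the other kind, with 31838 in its row and 14174 in GSMG0019534. Of the 293 3′ UTR features of a nearest gene that was itself tested, which belong to 231 genes, 74 (25.3%) held more reads than the named row, and the median was 31.8% of it. These genes, and the other examples of this and the next 3 paragraphs that are given as the most abundant of a class, were chosen after their values were seen.

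Long noncoding RNA features were on the whole scarce, with a median of 58.4 normalised reads and 18.2 per kb. Leaving aside the ribosomal feature described below, the highest was GSMG0018322 (AC127249.1, 8490 bases from Kctd16), with 7615 ± 277 in WT-labelled and 8768 ± 864 in Slm2KO-labelled libraries (SD, n = 4). GSMG0026238 (B230334C09Rik) followed with 7641 ± 308 and 8462 ± 1272, then GSMG0018917 (AC156546.1) with 4435 ± 203 and 4917 ± 378 and GSMG0031413 (Gm43597) with 4123 ± 530 and 3860 ± 480 (SD, n = 4 each). None of these 4 passed in limma (adjusted p = 1.00 each). Where the annotated transcript ended inside the feature, 324 of 582 (55.7%) had the polyadenylation signal AATAAA or ATTAAA in the last 50 bases, read on the transcript's strand. The share was 31.0% of all 32761 GENCODE noncoding transcripts of at least 200 bases and 50.3% of 58616 protein-coding ones. The share of the unnamed noncoding features was thus nearer to that of mRNAs. The sets are unlike, since the features were chosen by level and have a single transcript each, without the bound of 200 bases. No test was made of the difference in share, since features and transcripts also share genes.

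A few unnamed features are the transcripts that hold microRNA hairpins. MicroRNAs pair with mRNAs through their seed, bases 2 to 8, given in capitals in the RefSeq (GRCm38) sequences below; they are shown because the first pair, from 1 feature on chromosome X, share most of their seed, and the third is a member of the let-7 family.
mmu-miR-322-5p: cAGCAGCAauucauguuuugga
mmu-miR-503-5p: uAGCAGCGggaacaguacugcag
mmu-let-7d-5p: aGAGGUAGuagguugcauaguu

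In all, 7 unnamed features held 8 same-strand hairpins. GSMG0042516 (chromosome X, Gm28730), with Mir322 and Mir503, stood at 59.0 ± 8.99 in WT-labelled and 58.5 ± 14.2 in Slm2KO-labelled libraries. GSMG0010630 (6720427I07Rik), the host of Mirlet7d, stood at 1343 ± 168 and 1474 ± 126 (SD, n = 4 each). The values count reads over the whole feature in a library not made for small RNAs, so they are levels of the host RNA. None of the 7 passed in limma.

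Features on the opposite strand before a gene start were mostly of low level, with a median of 66.5 normalised reads. Of those under 1 kb from the start, the most abundant was GSMG0037452, 105 bases from Med26, a Mediator subunit gene, with 3022 ± 200 in WT-labelled and 3083 ± 200 in Slm2KO-labelled libraries. GSMG0032793, beside 6530409C15Rik, had 1918 ± 165 and 2163 ± 194, GSMG0002564, beside Fgfr3-ps, 1526 ± 96.5 and 1725 ± 288, and GSMG0007469, beside Hexim2, 1397 ± 128 and 1390 ± 121 (SD, n = 4 each). All 4 had adjusted p = 1.00 in limma. In GENCODE, GSMG0002564 touches a same-strand exon of the protein-coding gene Nvl, and GSMG0007469 overlaps Hexim2 on the opposite strand. Since the kit does not mark strand, reads of Hexim2 cannot be told apart in GSMG0007469. As a description over the 8 libraries, the median Pearson correlation of a feature with its gene was 0.09 for 724 features before the start on the opposite strand and 0.25 for 1111 same-strand features downstream. Under 1 kb from the gene it was 0.09 for 402 and 0.36 for 307 of them. These correlations share library, depth and scaling among all points.

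Among features that overlap no annotated gene, 4 of the 5 highest levels were found past a gene end on the same strand, and the second, GSMG0018244, lay 4059 bases upstream of Igip. GSMG0024029 began 321 bases past Eef1a2, the neuronal form of translation elongation factor 1A (chromosome 2, 181141306 to 181147371, minus strand). Its values were 24222, 25984, 21953 and 25584 in WT 1 to 4 and 24007, 25269, 23619 and 21037 in Slm2KO 1 to 4, overlapping ranges (log2 difference -0.06, interval -0.22 to 0.10, limma adjusted p = 1.00). Then came GSMG0018244 (12078 ± 402 in WT-labelled and 13497 ± 1406 in Slm2KO-labelled libraries), GSMG0020386 past Slit1, an axon guidance gene (11914 ± 939 and 12010.0 ± 1076), GSMG0007391 past Klhl11 (11004 ± 363 and 12284 ± 612) and GSMG0042968 past Cnksr2, a postsynaptic scaffold gene (10357 ± 564 and 12047 ± 1306; SD, n = 4 each). None of the 4 passed in limma (adjusted p = 1.00 each); the log2 difference of GSMG0042968, the largest of them, was 0.21 (SE 0.079).

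Pseudogene features were the most abundant class per length, with a median of 1359 normalised reads per kb at a median length of 231 bases. Many shared sequence with other genes. For the 106 with an annotated sequence, a median of 97.7% of their 30-base stretches also occurred in transcripts of other genes, against 0.54% for 726 long noncoding RNA features. For 62 of them a parent coding gene was among the rows tested, and the median level was 4.70% of the parent's. The correlation with the parent over the 8 libraries had a median of 0.47 and was at least 0.8 in 12. GSMG0053261 and GSMG0030151, both in Gm15459, a copy of the chaperone gene Hspa8, held 33172 ± 3177 and 25691 ± 2024 over WT 1 to 4 and 32293 ± 2566 and 26367 ± 2321 over Slm2KO 1 to 4 (SD, n = 4). Their correlations with Hspa8 were 0.96 and 0.87, while that of Gm15500 with Rpl5 was 0.07 and that of Rps2-ps13 with Rps2 was -0.20. Strongly negative were those of Atp6v0c-ps2 with Atp6v0c (-0.91) and of Gm9825 with its parent Rnps1 (-0.90). GSMG0043295 (Gm12715) held 46.9% of the level of its parent Actg1, a cytoplasmic actin gene (22163 ± 1626 and 20654 ± 2044). GSMG0036555 (Gm15500) held 309% of that of Rpl5, a ribosomal protein gene, with 20344 ± 828 and 19745 ± 1003 against 6367 and 6598 in the Rpl5 row. In this case the copy had more reads than its parent.

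The reads of Atp6v0c and of its copy were divided differently in 2 libraries. Atp6v0c encodes the membrane ring subunit of the vacuolar proton pump, and GSMG0043149 (chromosome 6, 37805975 to 37807095, plus strand) is its copy Atp6v0c-ps2. The copy stood at 37251, 39799, 37992 and 37023 in WT 1 to 4 and at 41847, 37836, 74771 and 58910 in Slm2KO 1 to 4. The Atp6v0c row stood at 50535, 56472, 49643 and 50908 and at 52073, 53009, 26309 and 22283 in the same order. Slm2KO 3 and Slm2KO 4 were high in the copy and low in the parent, and the other 6 libraries were alike. The copy's part of the sum of both rows was 41.3% to 44.6% in those 6 libraries, 74.0% in Slm2KO 3 and 72.6% in Slm2KO 4.

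The sum of both rows varied less than either. Its CV over the 8 libraries was 6.77%, against 30.3% for the copy and 29.0% for the Atp6v0c row, and it was 89906 ± 4245 in WT-labelled and 91759 ± 8247 in Slm2KO-labelled libraries (SD, n = 4; two-sided exact permutation p = 0.714). The log2 difference between the labels was 0.44 for the copy (interval 0.03 to 0.84) and -0.54 for Atp6v0c, neither past the threshold in limma (adjusted p = 1.00 for both). Without Slm2KO 3 the copy's difference was 0.26. What sets Slm2KO 3 and Slm2KO 4 apart here was not tested; both have Y-linked reads and sample numbers of the upper series, as has WT 4, whose copy had 42.1% of the sum.

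**Figure D2:**
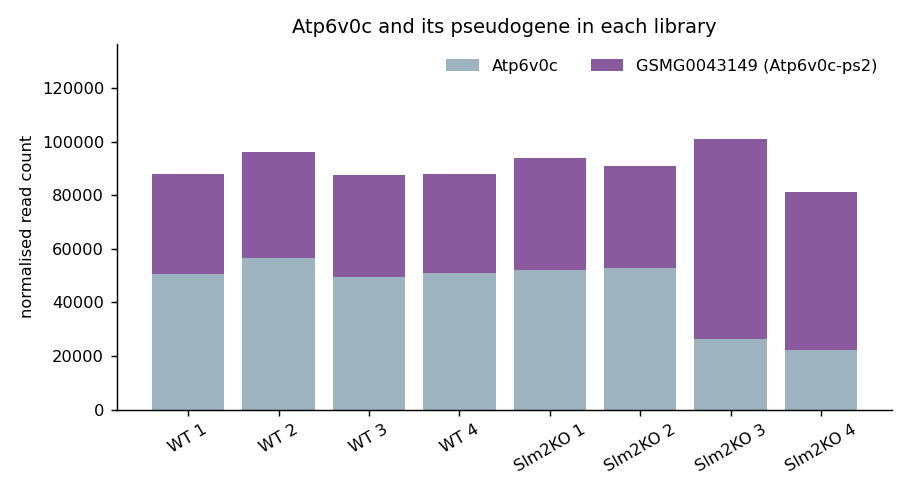
Stacked normalised read counts (vertical axis) of the Atp6v0c row and of the unnamed copy GSMG0043149 in each of the 8 libraries. The bars reach like heights, while the copy makes up 74.0% and 72.6% of the bar in Slm2KO 3 and Slm2KO 4 and 41.3% to 44.6% in the other 6.

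The feature with the most reads overlaps ribosomal RNA. GSMG0050945 (chromosome 17, 39842997 to 39848829, plus strand) lies 101.7 kb from Esp38, its nearest named row, over Gm26917 and an annotated ribosomal RNA. It held 423049, 299482, 648596 and 422310.0 reads in WT 1 to 4 and 336786, 400555, 374355 and 565338 in Slm2KO 1 to 4. The labels overlapped (log2 difference -0.07, interval -0.57 to 0.43), and the highest library, WT 3, had more than any Slm2KO-labelled one. Alone it made up 17.0% to 31.7% of the reads of all unnamed features, so sums over the class follow it. GSMG0053277, on an unplaced scaffold (AC149090.1), was high in WT 2 (65979) and low in WT 4 (9891), with the other 6 libraries between 26598 and 34980.

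Some very short features came in runs. Of the 2576, 252 were at most 60 bases long. Joining features of any length within 10 kb on a strand gave 235 clusters of 2 or more, with 639 features in them. Another 1937 features stood alone. Of the clusters, 5 held 10 or more features, 117 features in all. The largest run, 38 features between Gm10010 and 9330102E08Rik (chromosome 6, 128183898 to 128187783, minus strand), had a median length of 41 bases. Outside this run, on chromosome 4, GSMG0059978, of 25 bases in Gm11808, had a mean of 3106 reads and GSMG0049980, of 30 bases in the same gene, 2543. Neither differed between the labels beyond the spread (log2 differences -0.02 and 0.00, limma adjusted p = 1.00). The rule by which reads were assigned to so short an interval is unknown here, which limits what a value per kb says of short features.

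At the far end of the distance scale the levels were low. GSMG0001976 (9330185C12Rik) lay 1721 kb from Cntnap5a and GSMG0011915 (Tpm3-rs7) 1516 kb from 4930524C18Rik, with means of 42.1 and 14.7. GSMG0034815 (Gm5899), 961 kb from Fam181b, had 31.3 and GSMG0003840 (Gm7198), 750 kb from Nmbr, had 17.4. Without annotation and 1372 kb from A330008L17Rik stood GSMG0043380 (chromosome 8, 101105179 to 101106077, plus strand), with 155, 150.04, 153 and 158 in WT 1 to 4 and 198, 159, 169.96 and 172 in Slm2KO 1 to 4. The Slm2KO-labelled libraries all lay above the WT-labelled ones (exact permutation p = 0.0286, the smallest that 70 assignments allow), but the log2 difference of 0.18 had an interval of -0.08 to 0.43 and limma's adjusted p was 1.00.

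At the threshold of 10 the last features included were GSMG0012360 (10.05), GSMG0020498 (10.05) and GSMG0004754 (10.05). The first left out were GSMG0009865 (9.96), GSMG0017965 (9.95) and GSMG0001852 (9.94).

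No unnamed feature passed the test between the labels. In limma, 0 of 2576 had an adjusted p under 0.05, where 1 of all 25667 rows did (0.0039%); on the recovered reads edgeR called 0 features and DESeq2 called 4, among 9 rows in all (0.0351%). At an unadjusted p under 0.05 stood 134 of the 2576 (5.20%), against 3.52% of all rows. Of these, 93 were higher in the Slm2KO-labelled libraries (all rows: 1.7% higher) and 41 lower (all rows: 1.82% lower). In 56 features every Slm2KO-labelled library lay above every WT-labelled one, 2.17% against 1.33% of all rows, and in 27 every one lay below, 1.05% against 1.17%. The median log2 difference was 0.04 for the unnamed features and -0.01 for all rows.

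The 10 features of smallest p included copies, 3′ UTRs and unannotated stretches. First came GSMG0043318 (chromosome 5, 95861155 to 95861802, plus strand). This feature of 648 bases holds 89 bases of Gm5559, the copy of the glycolytic gene Gapdh. It had 1326, 2615, 2869 and 1589.8 reads in WT 1 to 4 and 0, 87.3, 0 and 0 in Slm2KO 1 to 4, with no overlap (limma p = 2.42e-05, adjusted p = 0.310; exact permutation p = 0.0286). The Gapdh row held 56165 ± 1309 and 53716 ± 3988 (SD, n = 4), so the feature's reads came to 1.93% of it over all libraries. Because 3 libraries are at 0, the fitted change depends on the pseudocount; with a pseudocount of 10, with Ttr as a covariate or without Slm2KO 2 the feature passed (adjusted p = 0.0154, 0.0397 and 3.88e-07), and over all other alternatives it did not.

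The next was GSMG0028771, on an unplaced scaffold of chromosome 4 (16 to 36 kb of it, over the predicted gene CAAA01118383.1), with 672, 674, 676 and 686 in WT 1 to 4 and 522, 430, 395 and 388 in Slm2KO 1 to 4. The labels did not overlap, and the log2 difference was -0.65 (interval -0.88 to -0.42; limma adjusted p = 0.518; DESeq2 adjusted p = 5.24e-05). GSMG0043415, over the long noncoding RNA Gm37530 on chromosome 4, had 70.1, 16.3, 7.09 and 39.2 in WT 1 to 4 and 7.39, 0, 0 and 0 in Slm2KO 1 to 4. WT 3 lay below Slm2KO 1, and the groups thus overlapped (limma p = 0.00112, adjusted p = 1.00; exact permutation p = 0.0571).

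**Figure D3:**
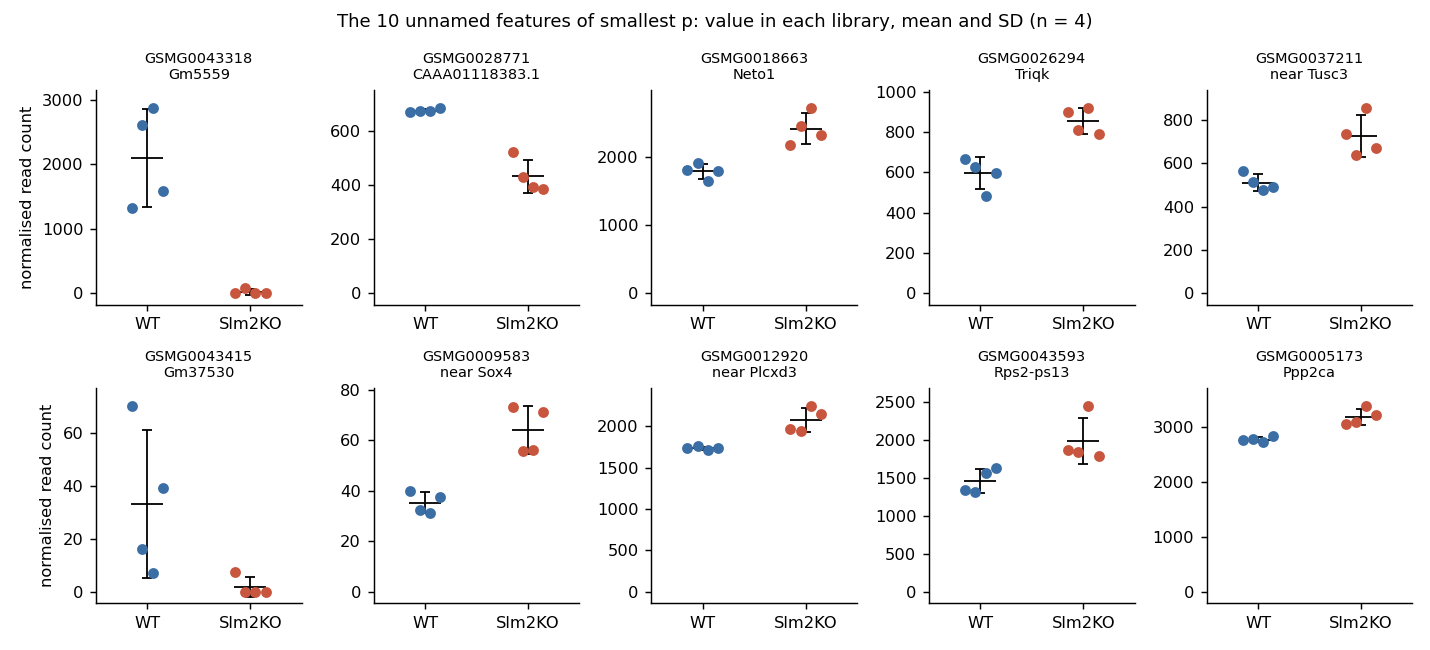
Normalised read count (vertical axes, each from about 0) of the 10 unnamed features of smallest p in each WT and Slm2KO library (points), with the mean and SD (n = 4, black). In 9 of the 10 panels the points of the labels do not overlap; the exception is GSMG0043415, and GSMG0043318 is at 0 in 3 Slm2KO libraries.

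3′ UTR stretches and a stretch past Tusc3 followed, with the Slm2KO-labelled libraries on the higher side. GSMG0018663, in the 3′ UTR of Neto1, which encodes an auxiliary subunit of kainate receptors (chromosome 18, 86505750 to 86508239, plus strand), had 1811, 1911, 1647 and 1800 in WT 1 to 4 and 2181, 2452, 2714 and 2314 in Slm2KO 1 to 4. The ranges were apart (log2 difference 0.43, interval 0.25 to 0.60; limma adjusted p = 1.00; DESeq2 adjusted p = 0.00191), while the Neto1 row differed by 0.10. GSMG0026294, in the 3′ UTR of Triqk (chromosome 4, 12982156 to 12983244, plus strand), had 668, 629, 484 and 599 against 901, 811, 917 and 791, again apart (log2 difference 0.53, interval 0.29 to 0.77; limma adjusted p = 1.00; DESeq2 adjusted p = 0.0138). The Triqk row differed by 0.16. GSMG0037211, 4614 bases past Tusc3, which encodes a subunit of the oligosaccharyltransferase, had 564, 511, 476 and 489 against 736, 635, 853 and 671 (log2 difference 0.50, interval 0.26 to 0.73; limma adjusted p = 1.00; DESeq2 adjusted p = 0.0276), while the Tusc3 row differed by 0.20.

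The other 4 features of this list had log2 differences of 0.20 to 0.83. GSMG0005173, in the 3′ UTR of Ppp2ca, the catalytic subunit gene of protein phosphatase 2A, and host of Mir3061, had 2753, 2772, 2717 and 2826 against 3049, 3080, 3367 and 3215 (log2 difference 0.20, SE 0.053). GSMG0012920, 3971 bases past Plcxd3, had 1733, 1762, 1716 and 1738 against 1970, 1949, 2240 and 2154 (0.26, SE 0.062), where the Plcxd3 row held 537 and 536. GSMG0009583 starts 1115 bases before Sox4, a transcription factor gene of neural progenitors, on the other strand, and had 40.1, 32.5, 31.4 and 37.3 against 73.0, 55.8, 56.0 and 71.1 (0.83, SE 0.19). The Sox4 row held 3319 and 3513 (0.07), and the gap between these log2 differences was not tested. GSMG0043593, the copy of Rps2 shown above, had 1345, 1316, 1568 and 1632 against 1875, 1847, 2446 and 1789 (0.44, SE 0.11), and the Rps2 row held 22574 and 20855. All 4 were apart in every library, and none passed in limma (adjusted p = 1.00 each).

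Most 3′ UTR features had somewhat higher means in the Slm2KO-labelled libraries, none of them past the test. Of the 366, 290 (79.2%) had a higher mean in the Slm2KO-labelled libraries, with a median log2 difference of 0.09. In limma 30 (8.20%) had an unadjusted p under 0.05 in that direction and 0 in the other. Over all rows 46.1% had a higher mean, and at that p 1.7% stood higher and 1.82% lower. The shares with a higher mean were 50.8% of the long noncoding RNA features, 48.3% of the pseudogene features and 58.5% of those without annotation. The classes also differed in level, with median values of 378 for 3′ UTR features and of 58.4, 184 and 59.2 for these 3. Over all unnamed features the share was 52.5% at a mean of 10 to 50 and 48.2% at 50 to 100. It was 60.9% at 100 to 1000, 80.5% at 1000 to 10000 and 76% at 10000 or more. The part of level in the difference between classes was not tested. None of the 366 passed in limma, and the test of the class as a whole is not given, since its members were not chosen apart from these data.

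**Figure D4:**
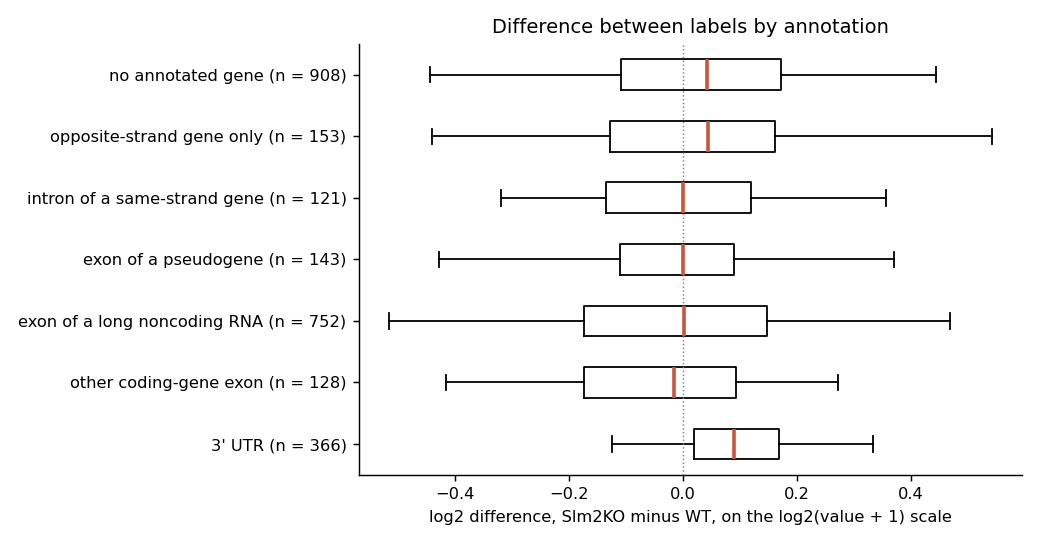
Log2 difference of Slm2KO minus WT for the unnamed features of each annotation class (boxes: quartiles with the median in red; whiskers: 5th to 95th percentile). The box of the 366 3′ UTR features lies above 0 (median 0.09), while the medians of the other classes lie between -0.02 and 0.04.

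The named rows beside downstream features did not share this sign. This was examined in a larger set, chosen by position whatever the annotation: 872 features up to 10 kb downstream of a gene on its strand (725 genes). The log2 value of the gene was subtracted from that of the feature in each library. This comparison was added after the data had been seen. No pair passed in limma (0 of 872, 0%; smallest adjusted p = 0.199), 85 (9.75%) had an unadjusted p under 0.05, 70 of them (8.03%) higher in the Slm2KO-labelled libraries and 15 (1.72%) lower. In 645 pairs (74.0%) the feature was higher relative to its gene in those libraries, with a median of 0.09; the features' own median was 0.08 and the genes' 0.00. An example outside the naming rule is Vgll3, a transcription cofactor gene, whose row held 226 ± 34.4 and 198 ± 5.37 and whose 3′ stretch GSMG0015160 held 923 ± 139 and 1118 ± 116 (SD, n = 4).

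The sign was carried by some libraries more than by others. Relative to each pair's own mean, the median of feature over gene was -0.02, -0.04, -0.03 and -0.08 in WT 1 to 4 and -0.08, 0.02, 0.10 and 0.16 in Slm2KO 1 to 4. Slm2KO 1 lay among the lowest, and Slm2KO 4, the library with the most Ttr, was the highest. Within the lower series of sample numbers (2 libraries per label) 50.1% of the pairs were higher, with a median of 0.00, and within the upper series 79.8% were, with a median of 0.19. For the 3′ UTR features the shares were 66.4% and 77.3%. Without the libraries of lowest and highest Ttr, 65.1% of the pairs and 71.3% of the 3′ UTR features were higher. Without Slm2KO 4 the shares were 65.4% and 73.0%. With log2 Ttr as a covariate 79.2% of the 3′ UTR features were higher (median log2 difference 0.09), as in the main fit. The part of Ttr in the pairs, and of the Y-linked signal in this pattern, was not tested. At an unadjusted p under 0.05, leaving out Slm2KO 3 gave 83 unnamed features (43 higher) and leaving out Slm2KO 1 gave 220 (176 higher). The counts over all rows in these fits are not given, so whether this swing is particular to the unnamed features cannot be told.

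**Figure D5:**
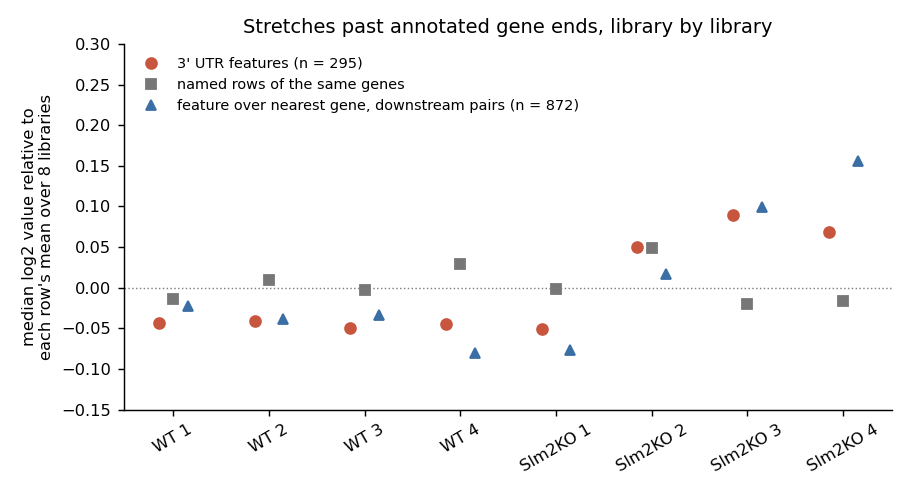
Median log2 value in each library relative to the row's own mean over 8 libraries, for 295 features in the 3′ UTR of the nearest gene (circles), the named rows of those genes (squares), and feature over gene in 872 downstream pairs (triangles). Triangles run from -0.08 in WT 4 and Slm2KO 1 to 0.16 in Slm2KO 4, and the circles of WT 1 to 4 and Slm2KO 1 all lie below 0.

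Among the nearest named rows, 1820 were tested and 1 was called, Khdrbs2, which encodes the related protein SLM1. Khdrbs2 was higher in the Slm2KO-labelled libraries, with 2087.8 to 2730.5 against 971.96 to 1207.5 in the WT-labelled ones (log2 difference 1.18, limma adjusted p = 0.00761). The unnamed feature next to it, GSMG0000114 (Gm37426, 52440 bases downstream), had 16.0, 28.9, 28.4 and 17.2 in WT 1 to 4 and 12.9, 25.3, 24.9 and 23.7 in Slm2KO 1 to 4, overlapping ranges (log2 difference -0.06, interval -0.77 to 0.66). Beside Khdrbs3, at 167606 bases upstream, GSMG0013255 (Gm49415) had 9.97 ± 3.98 and 11.2 ± 3.81 (SD, n = 4). At these levels a difference in either neighbour could be shown only if it were large.

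Complete absence from a library was uncommon. In 34 features (1.32%, against 0.557% of all rows) at least 1 library was at 0, and in 9 at least 4 were. The 2 that were at 0 in every WT-labelled library were GSMG0050892, over coding sequence of Duxbl3, with 109 reads in Slm2KO 2 alone, and GSMG0043224, over Hmga1b, with 141 in Slm2KO 3 and 101 in Slm2KO 4. None was at 0 in every Slm2KO-labelled library. GSMG0009383 had reads in WT 2 (28.0), WT 4 (55.5) and Slm2KO 1 (46.2) only, and GSMG0032833 ran from 0 in WT 3 to 92.6 in Slm2KO 4. Together with GSMG0043415 these were the 5 features of largest CV, 138% to 283%, and in none of the 5 did the libraries divide by label without overlap.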

How the data were processed

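The authors deposited 1 table with 1 signal value per row and library. Per the submitters' processing notes the reads were scaled with DESeq; FastQC, Picard and SAMtools are also named, without versions, with aligner, counter and strand option not given in the sources used here. Although hg19 stands among the notes, the file header gives mm10 and all coordinates are in it. Per the labels' protocols the libraries were made with the Illumina TruSeq RNA kit, which does not mark strand, so a feature's strand is the table's and antisense reads cannot be told apart. The values are not divided by length.

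Each deposited signal column consists of whole multiples of 1 step (100% within 0.001 of a read), from which reads were recovered (the step of WT 1 is too near 1 to be told from rounding); depth ran from 104020058 to 125985224 reads. The rows with a mean of at least 10 were tested with limma 3.58.1 (R 4.3.3) with an intensity trend on log2(value + 1), Benjamini-Hochberg over all 25667 rows and a threshold of 0.05; intervals are 95% confidence intervals and single features have an exact permutation test besides (two-sided). The procedure was tested on simulated data. A fold change on this scale understates that of low rows. Alternatives were edgeR 4.0.16 and DESeq2 1.42.0 on the recovered reads, other pseudocounts, filters and scaling, covariates, and left-out libraries.

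GENCODE vM21 (GTF and transcripts) gave annotation and sequence, RefSeq the microRNAs. The nearest named row is that of the smallest gap on either strand. Same-numbered WT and Slm2KO libraries were checked for pairing and share only a number. Features were named by rule: the 10 of smallest p, the 10 of highest mean, the 5 highest per kb, the 5 farthest, the 5 of largest CV, and 3 on either side of the mean of 10. The membership rule, lists and tests were chosen with earlier results of these data known. Tables were read with Python 3.11.15 and figures drawn with matplotlib 3.10.9. Some items are not reported here.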

Additional observations from a re-analysis of the deposited data

Results flagged for a closer look

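In 8 of 68 groups of 4 libraries checked among the named features, 1 library stood far from the other 3 (by Dixon's 95% critical value); chance flags about 1 group in 20. That rate does not hold for GSMG0043415, GSMG0050892, GSMG0009383 and GSMG0032833, which were named for their large CV, nor for groups with 3 libraries at 0. GSMG0043318, which holds the copy of Gapdh, had 87.3 in Slm2KO 2, where the other 3 Slm2KO libraries were at 0. GSMG0043415 had 7.39 in Slm2KO 1, GSMG0050892 had 109 in Slm2KO 2 and GSMG0009383 had 46.2 in Slm2KO 1, in each case with the other 3 at 0. GSMG0043593, the copy of Rps2, had 2446 in Slm2KO 3 and 1789 to 1875 in the others. GSMG0053261, a copy of Hspa8, had 36098 in Slm2KO 2 and 30528 to 31466 in the others. In the WT libraries, GSMG0032833 had 27.8 in WT 4 and at most 2.00 elsewhere, and GSMG0004754 had 26.0 in WT 1 and 5.74 to 8.13 elsewhere.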

How the results depend on the processing

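No unnamed feature passed in limma, nor with edgeR, a pseudocount of 0.5, a mean of at least 50, no filter, TMM factors, no trend, the number series as a covariate or without the libraries of extreme Ttr, nor among the features at least 5 kb from a named row or outside every annotated gene. A pseudocount of 10 and Ttr as a covariate each gave 1 (GSMG0043318, which holds the copy of Gapdh). DESeq2 gave 4 (GSMG0018663, GSMG0026294, GSMG0028771 and GSMG0037211). These counts of 1, 1 and 4 hold for the named features too. Leaving out 1 library at a time gave 0 to 1 among unnamed and among named features, the 1 being GSMG0043318 without Slm2KO 2. Over all rows the call of 1 became 2 with a pseudocount of 10, 12 with no filter, 9 with DESeq2, 0 without the trend and 2 with Ttr as a covariate, and ran from 0 to 2 with libraries left out. Among nearest named rows the call of 1 became 2 with DESeq2 and 0 without the trend, and ran from 0 to 1 with libraries left out. The cause was not tested.

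At an unadjusted p under 0.05 the unnamed features numbered 83 to 220 with libraries left out (lowest without Slm2KO 3, highest without Slm2KO 1). Those higher in the Slm2KO-labelled libraries numbered 43 to 176. With a mean of at least 50, which tests fewer features, 20 were lower instead of 41. The matching counts over all rows in the alternative fits are not given, so whether such shifts are particular to the unnamed features cannot be told. Other membership rules gave 1008 features at least 5 kb away, 4043 with overlap barred on the same strand only, 908 outside every GENCODE gene, 1481 at a mean of at least 50 and 2132 with 10 in every library.

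Of 1027 alternative values of 52 named features, 18 of them chosen after their values were seen, 988 kept their direction; none of the others was past the threshold in either direction. For GSMG0053277 the log2 difference of 0.23 became -0.063 with edgeR and -0.061 with DESeq2. Without the libraries of extreme Ttr it was 0.025 for GSMG0024029, 0.013 for GSMG0043295, -0.050 for GSMG0049980, -0.51 for GSMG0001976, 0.080 for GSMG0020498 and -0.062 for GSMG0012701. With 1 library left out the differences spanned 0 as follows: -0.25 to 0.13 for GSMG0050945, -0.11 to 0.0033 for GSMG0053261, -0.25 to 0.66 for GSMG0053277, -0.023 to 0.070 for GSMG0030151, -0.052 to 0.018 for GSMG0059978, -0.035 to 0.043 for GSMG0049980, -0.28 to 0.33 for GSMG0001976, -0.11 to 0.11 for GSMG0034815, -0.57 to 0.16 for GSMG0004754, -0.036 to 0.19 for GSMG0012701, -0.0038 to 0.072 for GSMG0037452, -0.074 to 0.034 for GSMG0007469 and -0.035 to 0.070 for GSMG0020386.

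Libraries of the same number did not deviate together in every pair (correlations of 0.12, 0.32, -0.07 and -0.12, with the own number the best match for 1 of 4), so the replicate block is a check only: it gave 0 calls among unnamed features, 1 over all rows and 118 unnamed features at an unadjusted p under 0.05. In the comparison of feature and gene, the share of pairs higher in the Slm2KO-labelled libraries was 65.4% (without Slm2KO 4) to 78.4% (without Slm2KO 1) with libraries left out, and 0 pairs were called in each of these fits. Features with a mean of 10 to 50 have a median CV of 30.3%, which limits what can be seen there; permutation of 4 against 4 cannot give a p below 0.0286.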
